A study of Mus musculus with 8 samples.

Results

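The genes described here encode the Wnt ligands, their Frizzled receptors, and the secreted antagonists of the Sfrp and Dkk families. They were taken as every gene whose single symbol on the array's platform is Wnt, Fzd, Sfrp or Dkk followed by its number and, for Wnt genes, a letter a or b where there is one. That gave 37 of the 18193 genes with a probe set of a single symbol. They were 19 ligands, 10 receptors and 8 antagonists (4 Sfrp and 4 Dkk genes), read by 73 probe sets. Each gene was represented by the probe set with the highest mean level over the 8 arrays. The rule uses symbols alone, and these gene families were taken up with earlier results of these data known.

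The data came from 4 mouse epithelial cell lines, EpH4 and NMuMG from mammary gland and mProx and MCT from kidney tubule. Every line was hybridised once at rest and once after 24 h with rhTGF-b1 and rhEGF, the recombinant human growth factors TGF-β1 and EGF, at 3 ng/mL each. Resting and stimulated cells alike had spent 24 h in K-1 medium, which holds insulin and transferrin, and were kept in it during the stimulation. The series compares cells induced to undergo the epithelial-mesenchymal transition (EMT), the passage of epithelial cells to a migratory, fibroblast-like state, with cells that were not. The labels mark EpH4, alone of the 4 lines, as resistant to it. Each line is a single established culture with 1 array per condition, so a change within 1 line has no replicate check. Differences between tissues are differences between 2 pairs of lines, and fewer expressing cells and less RNA per cell cannot be told apart.

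Wnt proteins are lipid-modified secreted ligands that bind Frizzled receptors at the surface of neighbouring cells. With the co-receptors Lrp5 and Lrp6 the signal stabilises β-catenin, which then activates genes together with Tcf and Lef factors, whereas other Wnt-Frizzled pairs act through planar cell polarity and calcium. Sfrp proteins carry a Frizzled-like domain and bind Wnt proteins outside the cell, and Dkk1, Dkk2 and Dkk4 act on Lrp5 and Lrp6. In kidney the pathway takes part in the branching of the ureteric bud and the formation of tubules, and in mammary gland in the branching of ducts and the upkeep of basal cells.

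Values below are log2 levels, log2 of the array intensity plus an offset of 10.6, after the 8 arrays were brought to one distribution. A change is the stimulated level minus the resting level of the same line. A probe set's level says nothing about its level relative to another gene's, so levels are compared only within a gene. A gene is called dim on an array where it lay under 5.27, the 40th percentile of all probe sets' means, and genes whose mean reached that level were tested.

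Of the 37 genes, 22 were tested: 9 ligands, 9 receptors and 4 antagonists. The other 15 had lower means. Among them Wnt2, Wnt3, Wnt16, Sfrp2, Dkk2 and Dkk4 were dim on all 8 arrays. Wnt1, Wnt2b, Wnt5b, Wnt8a, Wnt8b, Wnt9b, Wnt10b, Fzd9 and Dkk1 reached the level on at least 1 array, with single values up to 6.10 for Wnt9b in resting EpH4 and 5.85 for Fzd9 in resting NMuMG. Dkk1, which blocks Lrp5 and Lrp6 and is itself a target of β-catenin, lay between 4.13 and 5.51 over the 8 arrays. Wnt2b lay between 4.16 and 5.35, Wnt1 between 4.37 and 5.45, Wnt5b between 3.56 and 5.67, Wnt8a between 4.80 and 5.77, Wnt8b between 3.90 and 5.67, and Wnt10b between 4.21 and 5.29. All these ranges sit around the level at which probe sets are dim. Of the 22 tested genes, 14 were at or above it on every array.

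Array medians ran from 41.5 to 59.6 on the deposited intensity scale. Of 7 measured genes known to respond to TGF-β or to EGF (Smad7, Skil, Dusp4, Dusp5, Etv4, Etv5 and Col1a1), all were higher after stimulation in each of the 4 lines, with a median log2 change of 1.42 over the 4 lines. The smallest change, that of Smad7 in mProx, was 0.009, which is as good as none, and Col1a1 in MCT was dim on both arrays. At rest the 12 epithelial markers summed to a normalised signal (offset included) of 39582 in EpH4 and 14395 in NMuMG, against 1868 in mProx and 4475 in MCT. Cdh1, E-cadherin, stood at 11.84 and 10.69 in the mammary lines and was dim in both resting kidney lines, at 3.53 in mProx and 3.87 in MCT. Krt7, Krt8, Krt18 and Cldn4 were also higher in both mammary lines than in both kidney lines. Epcam and Grhl2 were not, with NMuMG at 7.38 and 5.94, below mProx (7.81 and 7.33) and MCT (8.31 and 7.37). Ocln and Esrp1 were higher in MCT (7.33 and 6.55) than in NMuMG (6.36 and 4.51). Krt19 was dim in EpH4, at 4.52, and Cldn3 and Cldn7 were dim in every line but EpH4. Of 11 measured kidney tubule markers, Cdh16, the kidney-specific cadherin, stood at 12.23 in resting mProx and 10.80 in resting MCT, against 4.24 and 5.33 in EpH4 and NMuMG, and Pax8, a kidney transcription factor, at 10.90 and 9.66 against 5.78 and 5.25. The water channel Aqp1 was high in mProx alone, at 12.84, and dim in resting MCT, at 5.07. Of the other 8, Slc5a2 alone was higher in both kidney lines than in both mammary lines, at 6.37 and 6.24 against 6.21 and 5.48. Hnf4a and Lrp2 were lower in both. Hnf4a stood at 5.29 and 5.52 in mProx and MCT against 6.13 and 6.23 in EpH4 and NMuMG, and Lrp2 at 5.96 and 5.99 against 6.09 and 6.57.

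**Figure D1:**
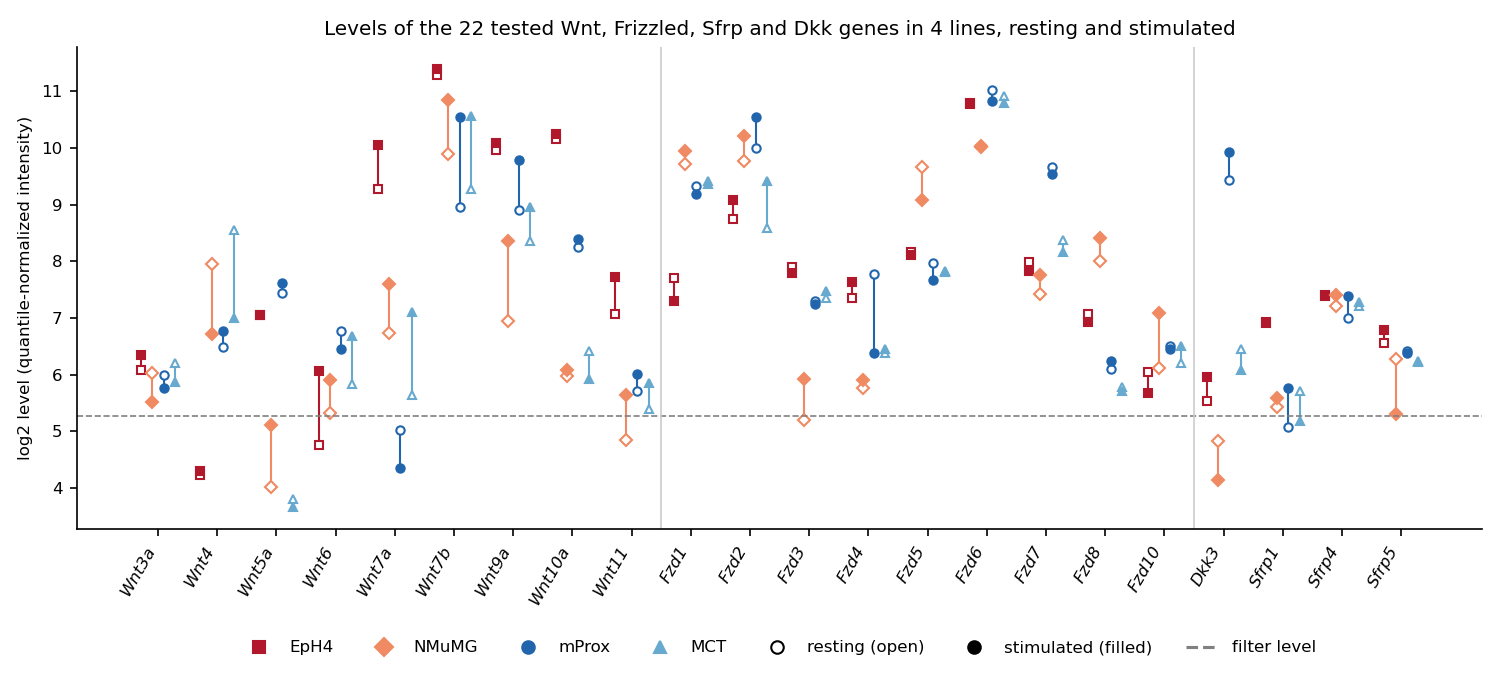
Log2 level of each of the 22 tested genes (horizontal axis) on each of the 8 arrays, with open symbols for resting and filled symbols for stimulated cells, joined within a line by a vertical stroke; red and orange are the mammary lines, dark and light blue the kidney lines, and the dashed line is the filter level of 5.27. Wnt7b, Wnt9a and Fzd2 show filled symbols above open ones in every line, Wnt4 shows the reverse in MCT and NMuMG, and Wnt4, Wnt5a, Wnt7a, Wnt10a and Dkk3 have the widest measured spread between lines, some of it under the dashed line; levels of different genes are not comparable.

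Among the ligands, Wnt7b, a β-catenin-activating ligand of kidney collecting duct and lung epithelium, was higher after stimulation in each line. It read 11.28 resting and 11.39 stimulated in EpH4, 8.96 and 10.55 in mProx, 9.28 and 10.57 in MCT, and 9.90 and 10.84 in NMuMG. At rest the 3 lines not marked as resistant lay below EpH4, and after stimulation they lay closer to it. The change was 0.11 in EpH4 against 1.59 in mProx, 1.28 in MCT and 0.94 in NMuMG, a mean of 1.27 ± 0.32 (SD, n = 3) over the 3 lines other than EpH4 and 0.98 ± 0.64 (SD, n = 4) over all. In limma's moderated test over those 3 lines its standard error was 0.15 and its adjusted p 0.0552, just outside the threshold of 0.05, where it ranked 14 by p among the 12697 genes tested. Over all 4 lines the adjusted p was 0.174. The call depends on the processing: over the 3 lines Wnt7b passed under 5 of the 14 alternatives tried, with adjusted p from 0.000403 on the values as deposited to 1 without the line as a block. Without NMuMG it passed, at 0.0242, and without mProx it did not, with a mean change of 1.11. The second probe set of Wnt7b read 10.50 and 10.85 in EpH4, 7.60 and 9.81 in mProx, 7.35 and 9.38 in MCT, and 8.60 and 9.53 in NMuMG, so it was higher after stimulation in each line too.

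Wnt9a, a ligand of developing joints and other tissues, gave a like picture. It read 9.97 and 10.09 in EpH4, 8.90 and 9.79 in mProx, 8.36 and 8.95 in MCT, and 6.95 and 8.37 in NMuMG. The smallest of the 4 changes was again that of EpH4, 0.12, and the highest that of NMuMG, 1.42. Its mean change was 0.97 ± 0.42 (SD, n = 3) over the 3 lines other than EpH4, with an adjusted p of 0.130 by limma, and 0.75 ± 0.55 (SD, n = 4) over all 4, with an adjusted p of 0.248. Its second probe set read 7.01 and 7.62 in EpH4, 5.68 and 7.04 in mProx, 5.58 and 6.05 in MCT, and 4.48 and 5.46 in NMuMG, where the resting value is dim. Both probe sets were higher after stimulation in each line, and on the second the EpH4 change was 0.61.

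Wnt11, which acts on planar polarity and marks the tips of the ureteric bud, read 7.07 and 7.72 in EpH4, 5.71 and 6.02 in mProx, 5.40 and 5.85 in MCT, and 4.85 and 5.64 in NMuMG. It too was higher after stimulation in each line, here with EpH4 at the top of the range at rest and after stimulation. The mean change of 0.55 ± 0.21 (SD, n = 4) had an adjusted p of 0.349. Wnt11 is read by 1 probe set, and its resting value in NMuMG is dim.

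Wnt4, which drives the conversion of kidney mesenchyme to tubule epithelium and the side branching of mammary ducts, was lower after stimulation in 2 lines of different tissue on the probe set used. It read 8.56 resting and 7.00 stimulated in MCT and 7.96 and 6.72 in NMuMG. In mProx it read 6.49 and 6.76, and in EpH4, where both arrays are dim, 4.22 and 4.30. In MCT and NMuMG the level was 2.94-fold and 2.35-fold lower after stimulation, and the stimulated values of mProx, MCT and NMuMG lay between 6.72 and 7.00. The mean change over the 3 lines other than EpH4 was -0.84 ± 0.98 (SD, n = 3), with an adjusted p of 0.390 by limma. A second, dimmer probe set of Wnt4 was lower after stimulation in each line, with changes of -0.87 in MCT, -0.71 in NMuMG, -0.31 in mProx where the first gave 0.27, and -1.30 in EpH4 between dim values.

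Wnt7a, which patterns the limb and the female reproductive tract, read 9.28 and 10.05 in EpH4, 5.03 and 4.35 in mProx (both dim), 5.64 and 7.10 in MCT, and 6.73 and 7.60 in NMuMG. It was 2.74-fold higher after stimulation in MCT, and also higher in both mammary lines. Over all 4 lines its mean change of 0.60 ± 0.91 (SD, n = 4) had an adjusted p of 0.516. Its second probe set gave a smaller change in MCT, 0.14, and a change of 1.25 in mProx where the first gave -0.68, so the probe sets differ on both kidney lines.

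Wnt6, made by epithelia including the ureteric bud, read 4.76 (dim) and 6.07 in EpH4, 6.76 and 6.45 in mProx, 5.84 and 6.68 in MCT, and 5.33 and 5.91 in NMuMG. Its mean change was 0.61 ± 0.68 (SD, n = 4), with an adjusted p of 0.459, and its other probe set, of a kind that can cross-hybridise, gave a mean of the opposite sign, -0.18. Wnt5a, the main ligand of the β-catenin-independent branch, read 7.05 on both EpH4 arrays and 7.44 and 7.63 in mProx. In MCT it read 3.80 and 3.66 and in NMuMG 4.02 and 5.11, all dim, so its change of 1.10 in NMuMG rests on dim values. Across the lines, Wnt5a therefore stood clear of the dim range in 1 line of each tissue.

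Wnt10a, a ligand of teeth, hair and skin, read 10.15 and 10.25 in EpH4, 8.26 and 8.40 in mProx, 6.41 and 5.92 in MCT, and 5.97 and 6.08 in NMuMG. Its levels differed between lines far more than with stimulation, the largest change being -0.49 in MCT. Wnt3a, the ligand most used to activate β-catenin in culture, lay between 5.51 and 6.35 on all 8 arrays, with a mean change of -0.20 ± 0.34 (SD, n = 4) and an adjusted p of 0.749. Among the 9 tested ligands the median of the mean changes over 4 lines was 0.55, against 0.01 over all 12697 genes tested. By line that median was 0.79 in NMuMG, 0.45 in MCT, 0.18 in mProx and 0.12 in EpH4. It was 0.44 on the values as deposited and 0.53 after scaling to one trimmed mean.

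**Figure D2:**
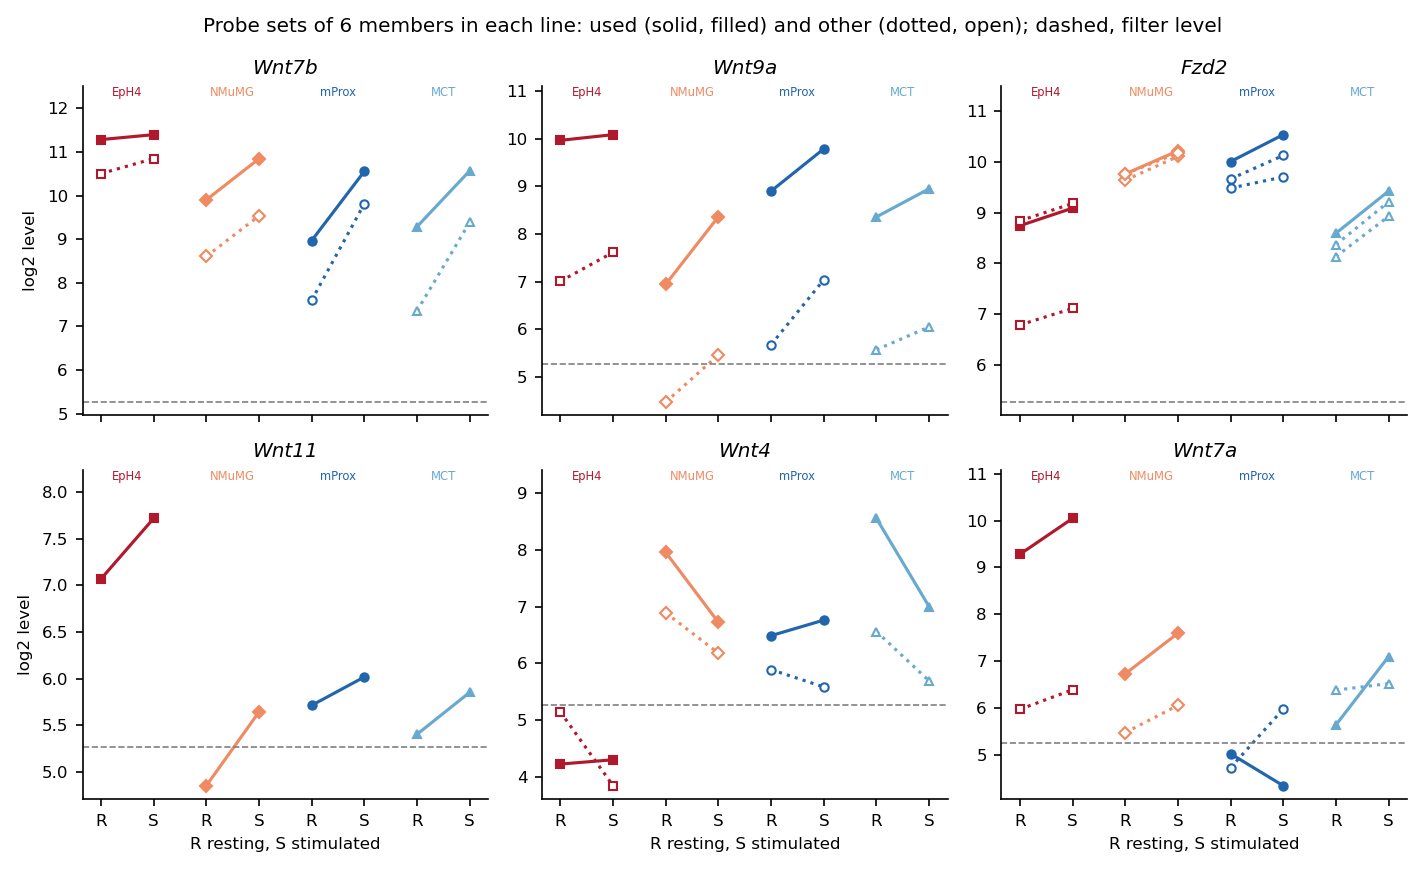
Log2 level (vertical axis) on the resting (R) and stimulated (S) array of each line for 6 genes, with solid lines and filled symbols for the probe set used and dotted lines and open symbols for the gene's other probe sets that pass the filter. The probe sets of Wnt7b, Wnt9a and Fzd2 slope upwards in every line, those of Wnt4 slope downwards in MCT and NMuMG, and those of Wnt7a run in opposite directions in mProx.

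Promoter sequence from RefSeq (assembly GRCm38.p6) is shown for 3 ligands that the table holds and whose values were described above. Wnt9a and Wnt11 were higher after stimulation in every line, and Wnt4 was past 2-fold lower in MCT and NMuMG on the probe set used. Each window holds the 250 bases before the annotated transcription start and the first 30 of the transcript, written 5′ to 3′ on the gene's strand. Capitals mark a short motif of a factor downstream of TGF-β, of β-catenin or of EMT, found by exact match on either strand. Wnt11 has 2 annotated starts. The windows lie at chr11:59306680-59306959 (Wnt9a), chr7:98834862-98835141 and chr7:98838595-98838874 (Wnt11) and chr4:137277385-137277664 (Wnt4), all on the + strand.
Wnt9a: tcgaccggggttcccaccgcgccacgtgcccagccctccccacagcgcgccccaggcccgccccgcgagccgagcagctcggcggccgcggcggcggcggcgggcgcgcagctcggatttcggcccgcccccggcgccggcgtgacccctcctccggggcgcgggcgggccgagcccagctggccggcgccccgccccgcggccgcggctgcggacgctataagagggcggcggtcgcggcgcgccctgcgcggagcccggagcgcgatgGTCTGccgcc
Wnt11, start 1: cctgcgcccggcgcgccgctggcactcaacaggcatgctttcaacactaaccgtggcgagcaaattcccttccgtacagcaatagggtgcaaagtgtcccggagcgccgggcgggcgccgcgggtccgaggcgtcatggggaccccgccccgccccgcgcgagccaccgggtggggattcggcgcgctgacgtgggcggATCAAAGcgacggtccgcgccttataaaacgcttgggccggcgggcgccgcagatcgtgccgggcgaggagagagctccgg
Wnt11, start 2: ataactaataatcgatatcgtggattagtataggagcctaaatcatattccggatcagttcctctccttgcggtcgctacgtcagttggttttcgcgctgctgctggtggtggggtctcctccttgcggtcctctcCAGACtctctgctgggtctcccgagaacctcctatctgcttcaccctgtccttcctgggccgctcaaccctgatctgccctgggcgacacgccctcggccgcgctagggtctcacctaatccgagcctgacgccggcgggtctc
Wnt4: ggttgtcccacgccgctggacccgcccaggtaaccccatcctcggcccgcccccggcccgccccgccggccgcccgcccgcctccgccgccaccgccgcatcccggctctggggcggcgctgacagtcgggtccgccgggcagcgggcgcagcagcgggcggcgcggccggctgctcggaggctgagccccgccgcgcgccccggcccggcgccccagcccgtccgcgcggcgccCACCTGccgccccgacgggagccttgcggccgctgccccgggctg
In Wnt9a the capitals mark the SMAD box CAGAC, read on the opposite strand and inside the transcript. At the first Wnt11 start they mark a TCF/LEF site, CTTTGAT on the opposite strand, and at the second a SMAD box. In Wnt4 they mark CACCTG, an E-box bound by Snail and Zeb repressors, 15 bases before the start. The same search found CAGAC in 13 of the 28 windows of 25 of the 37 genes, against 46.8% of 32851 windows of the whole table. CACCTG was in 9 of the 28 against 19.1% of the table, CTTTGAT in 2 against 3.56%, CTTTGAA, the other TCF/LEF form, in 1 against 4.86%, and TGACTCA, the AP-1 site, in 1 against 4.94%. A match describes letters and not binding, and the counts were not tested.

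Among the receptors, Fzd2, which binds several ligands of both branches, had the smallest p over 4 lines of the 22 genes. It read 8.74 and 9.09 in EpH4, 10.01 and 10.54 in mProx, 8.59 and 9.42 in MCT, and 9.76 and 10.22 in NMuMG. The changes of 0.35, 0.53, 0.83 and 0.46 gave a mean of 0.54 ± 0.21 (SD, n = 4), with a standard error of 0.113 and an adjusted p of 0.160 in limma's test. Its other 2 probe sets had means of 0.53 and 0.44 and were higher after stimulation in each line. Fzd5, the receptor of intestinal and ocular epithelium, was lower in each line, at 8.17 and 8.12 in EpH4, 7.97 and 7.67 in mProx, 7.83 and 7.81 in MCT, and 9.67 and 9.08 in NMuMG. The mean was -0.24 ± 0.27 (SD, n = 4), the adjusted p 0.555, and its second probe set had a mean of 0.38, so its direction is not settled.

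Fzd4, the receptor for norrin and Wnt ligands in vessels, read 7.36 and 7.63 in EpH4, 7.78 and 6.39 in mProx, 6.39 and 6.46 in MCT, and 5.76 and 5.91 in NMuMG. In mProx it was 2.62-fold lower after stimulation, while in the other 3 lines its changes lay between 0.07 and 0.27. A second probe set gave -1.19 in mProx. The summed normalised signal of leukocyte markers on the resting mProx array was 2231, against 511 to 630 on the others, and stimulated mProx gave 580. Most of that sum is 1 gene, Csf1r, at 10.91 resting and 7.63 stimulated. Of the other 7 measured leukocyte markers, Ptprc, the pan-leukocyte gene, was dim on all 8 arrays. In mProx Cd68, Adgre1, Itgam and Tyrobp had changes of 0.65, 0.56, 0.82 and 1.695. Itgam was dim on both mProx arrays and Tyrobp at rest. Cd3e and Lyz2 had changes of -1.02 and -0.43 there, with Cd3e dim after stimulation. Fibroblast markers summed to 2214 in resting and 816 in stimulated mProx, with 7 of 10 at or above the filter level on both arrays. Dcn and Lum, with changes of -3.04 and -2.66, carry that difference, while Col1a1, Thy1 and Postn had changes of 1.82, 1.14 and 0.61. Col3a1 had a change of -0.72, and Col1a2, Pdgfra, Pdgfrb and Fap had changes between -0.19 and 0.09. In EpH4 the same list summed to 3965 and 5344, with Postn at 11.77 at rest. Endothelial markers summed to between 211 and 341 on all arrays. The part of these markers in the Fzd4 value was not tested.

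Fzd6, a receptor of planar polarity that restrains β-catenin signalling, varied least with stimulation on the probe sets used, at 10.79 and 10.78 in EpH4, 11.02 and 10.82 in mProx, 10.92 and 10.80 in MCT, and 10.02 and 10.03 in NMuMG. Both NMuMG values lay below those of the other 3 lines. Its 2 other probe sets disagree: one had a mean change of -0.01 over 4 lines, and the other was lower after stimulation in each line, by up to a change of -1.65 in NMuMG, with a mean of -0.84. With the mean of all its probe sets the change of Fzd6 was -0.31, with an adjusted p of 0.344. Fzd1, close to Fzd2 and Fzd7 in sequence, read 7.70 and 7.30 in EpH4 and between 9.18 and 9.94 on the 6 arrays of the other lines. Here it is EpH4 that lay apart, at rest and after stimulation. Fzd7, the receptor of stem cells in several epithelia, read 9.66 and 9.54 in mProx, 8.38 and 8.16 in MCT, 7.99 and 7.83 in EpH4, and 7.42 and 7.75 in NMuMG.

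Fzd8 read 8.01 and 8.41 in NMuMG and 7.08 and 6.94 in EpH4, above the kidney lines at 6.10 and 6.24 in mProx and 5.78 and 5.72 in MCT. Fzd3, a planar polarity receptor of axons, lay between 7.24 and 7.91 in EpH4, mProx and MCT and at 5.20 (dim) and 5.93 in NMuMG. Fzd10 lay between 5.67 and 6.51 in EpH4, mProx and MCT, and in NMuMG it read 6.12 and 7.08, a change of 0.97. On the probe sets used, no receptor other than Fzd4 reached a 2-fold change in any line, while a second probe set of Fzd5 gave 1.26 in MCT and one of Fzd6 -1.65 in NMuMG. The receptors' median mean change was -0.04 over 4 lines and 0.02 over the other 3 without EpH4, close to the 0.01 of all genes.

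The 4 tested antagonists showed no shared direction. Dkk3, a divergent member of the Dickkopf family, read 9.44 and 9.92 in mProx, 6.45 and 6.08 in MCT, 5.53 and 5.96 in EpH4, and 4.83 and 4.14 in NMuMG, where both values are dim. It was thus far above the other lines in mProx, whether resting or stimulated. Sfrp1, often silenced in tumours, read 6.90 and 6.92 in EpH4 and between 5.08 and 5.76 on the other 6 arrays, of which resting mProx and stimulated MCT were dim. Sfrp4 lay between 7.00 and 7.41 on all 8 arrays, with a mean change of 0.17 ± 0.16 (SD, n = 4), positive in each line. Sfrp5 lay between 6.22 and 6.78 on 7 arrays and at 5.32 in stimulated NMuMG. Their adjusted p over 4 lines ran from 0.689 for Sfrp4 to 0.973 for Dkk3. For Dkk3, Sfrp1 and, among the receptors, Fzd1, a second probe set gave a mean change of the opposite sign.

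Taking the response as a whole, none of the 22 genes passed the adjusted threshold over all 4 lines or over the 3 lines other than EpH4. Over 4 lines none of the 12697 genes did (0% called), with 1454 at an unadjusted p under 0.05, 11.5% of all. At that unadjusted level 4 of the 22 were found, Wnt7b, Wnt9a, Wnt11 and Fzd2, all higher, beside 6.18% of all genes at that level and higher. Over the 3 lines 13 genes passed, 0.102% of those tested, with 1594 at an unadjusted p under 0.05, 12.6%. Here the 4 were Wnt7b, Wnt9a and Fzd2, higher, and Wnt4, lower. So 18.2% of the 22 in either comparison stood against 11.5% and 12.6% of all genes, and the comparisons share 6 arrays.

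In direction alone, 5 of the 22 genes were higher after stimulation in each of 4 lines, Wnt7b, Wnt9a, Wnt11, Fzd2 and Sfrp4, and 1, Fzd5, was lower in each. These are 22.7% and 4.55%, beside 10.4% and 9.18% of all genes tested. At 2-fold or more, EpH4 had 1 of the 22, Wnt6, which was dim at rest, or 4.55% beside 2.33% of all genes. In mProx there were 2, Wnt7b and Fzd4, or 9.09% beside 5.25%. MCT had 3, Wnt7b, Wnt7a and Wnt4, or 13.6% beside 5.48%, and NMuMG 3, Wnt9a, Wnt5a and Wnt4, or 13.6% beside 5.01%. The Wnt5a values in NMuMG are both dim. On the probe sets used, Wnt7b and Wnt4 were the members past 2-fold in more than 1 line. Other probe sets that pass the filter were also past 2-fold for Wnt7b (2.21 in mProx, 2.03 in MCT) and Fzd4 (-1.19 in mProx). They were not for Wnt4 (-0.87 in MCT, -0.71 in NMuMG), Wnt7a (0.14 in MCT), Wnt9a (0.99 in NMuMG), Wnt5a (0.39 in NMuMG) and Wnt6 (-0.55 in EpH4).

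**Figure D3:**
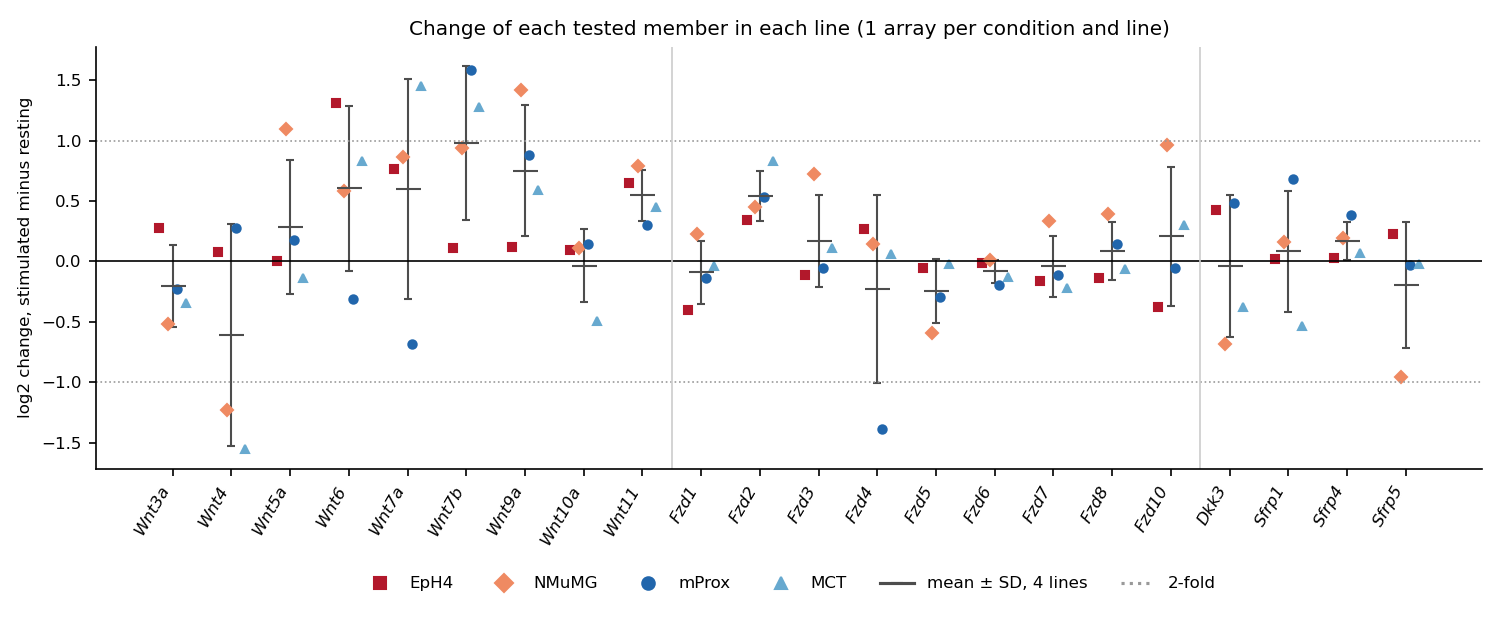
Log2 change, stimulated minus resting, of each of the 22 tested genes in each line, with the horizontal bar at the mean and the whisker at ± 1 SD over the 4 lines; dotted lines mark 2-fold. The EpH4 squares of Wnt7b and Wnt9a lie near 0 while the other lines lie between 0.59 and 1.59, and the whiskers of Wnt7b, Wnt9a, Wnt11, Fzd2 and Sfrp4 stay above 0.

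Whether EpH4 responded differently from the lines not marked as resistant was tested directly. For Wnt7b the EpH4 change minus the mean of the other 3 was -1.16 (standard error 0.288), with an unadjusted p of 0.00495 and an adjusted p of 1 over all genes by limma. For Wnt9a the difference was -0.85 (standard error 0.371, adjusted p 1). No gene of the 12697 passed (0% called), and 436 (3.43%) had an unadjusted p under 0.05. In this test EpH4 is a lone line and is assumed to vary like the others. At rest EpH4 had the highest level of both genes, 11.28 for Wnt7b against 8.96 to 9.90, and 9.97 for Wnt9a against 6.95 to 8.90. On the probe sets used, the stimulated levels of the other lines, 10.55 to 10.84 for Wnt7b and 8.37 to 9.79 for Wnt9a, stayed under the resting level of EpH4. The second probe set of Wnt7b gave the same order, with 9.38 to 9.81 against 10.50. On that of Wnt9a stimulated mProx, at 7.04, lay just above resting EpH4, at 7.01. There the smallest change was that of MCT, 0.48, against 0.61 in EpH4.

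Kidney and mammary lines were compared in the same way. The Wnt7b change was larger in the kidney lines by 0.91 (standard error 0.289, adjusted p 0.760), and no gene passed (0% called), with 754 (5.94%) at an unadjusted p under 0.05. The mammary mean joins EpH4, with a Wnt7b change of 0.11, to NMuMG, with 0.94, against 1.59 in mProx and 1.28 in MCT. Tissue and the resistance marked for EpH4 therefore cannot be told apart in this difference. At rest the kidney lines' mean minus the mammary lines' mean was -2.67 for Wnt7a (standard error 0.940, adjusted p 0.625), -1.60 for Fzd8 (adjusted p 0.599) and -1.47 for Wnt7b (adjusted p 0.668). For Dkk3 it was 2.77 (adjusted p 0.672), with mProx at 9.44 and MCT at 6.45 against 5.53 and 4.83. The Wnt7a difference holds for the probe set used. Its second probe set read 4.73 in resting mProx and 6.38 in resting MCT, against 5.98 in EpH4 and 5.48 in NMuMG. No gene passed this comparison either (0% called, 937 or 7.38% at an unadjusted p under 0.05), which has 2 lines a side. Both kidney lines lay above both mammary lines for 5 of the 22 genes and below for 4, or 22.7% and 18.2% beside 20.8% and 16.2% of all genes, so the shares were near the background.

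Between single lines the resting levels differed widely. Where the lowest line is dim, the measured fold is not exact, and a lower bound is given against the filter level of 5.27. By that measure, on the probe sets used, the highest resting line was 18.2-fold above the lowest for Wnt10a (EpH4 over NMuMG). For Dkk3 it was at least 18-fold (mProx over NMuMG). For Wnt7a it was at least 16.2-fold (EpH4 over mProx), for Wnt4 at least 9.81-fold (MCT over EpH4), and for Wnt5a at least 4.53-fold (mProx over MCT). Wnt9a followed at 8.11-fold, Fzd3 at no less than 6.24-fold, Wnt7b at 4.99-fold, Fzd7 at 4.72-fold and Fzd8 at 4.68-fold, and Fzd1 and Fzd4 were just past 4-fold. In measured values on the probe sets used, 14 of the 22 tested genes reached 4-fold, or 63.6%, beside 19.2% of all genes tested. Without a filter 14 of 37 did, or 37.8%, beside 15.6%. With dim values set at the filter level 12 of the 22 did, since Wnt11 and Wnt6 then gave 3.49-fold and 2.82-fold. That count was not taken over all genes. Several of these genes passed the filter through the lines where they are high, so the count describes them and nothing more. At the other end Wnt3a, Sfrp5, Sfrp4 and Fzd10 differed between resting lines by 1.16-fold to 1.37-fold. The spans have no test, since each line gave 1 resting array.

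The rest of the pathway was read from 8 lists of 99 listed genes in all. Of these 96 had a probe set of a single symbol and 76 were tested. None passed in either response (0% and 0.102% of all genes called). At an unadjusted p under 0.05 there were 13 (17.1%) over 4 lines and 15 (19.7%) over 3, beside 11.5% and 12.6% of all genes. Of the 3 genes of Wnt secretion and release, Porcn, Wls and Notum, none was at that level, with mean changes over 3 lines of 0.30, 0.14 and 0.20. Among 11 tested co-receptors 1 was, Ptk7, a planar polarity co-receptor, with changes of 1.13 in NMuMG, 0.65 in MCT, 0.27 in mProx and 0.16 in EpH4. Lrp6 had a mean of -0.35 over 3 lines, Gpc3 of -0.25 and Reck of 0.29. Of 5 other extracellular modulators Tpbg, a membrane antagonist of Wnt signalling, was higher in each line by 0.54, 0.62, 0.87 and 0.48, with an adjusted p of 0.126 over 4 lines, while Kremen1, Rspo2 and Apcdd1 had means over 3 lines of 0.09, -0.11 and -0.24.

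The R-spondin receptors, which raise Frizzled levels at the cell surface, differed among themselves. Lgr6 was higher in each line, by 0.48, 0.27, 0.53 and 0.83, and Lgr4 had changes of -1.64 in mProx, -0.78 in MCT, 0.19 in NMuMG and -0.07 in EpH4, with adjusted p of 0.303 and 0.391 over 3 lines. Lgr5 ran from -0.95 in NMuMG to 1.69 in MCT, and the ligase Znrf3 had a mean of -0.10. The 16 tested genes of cytoplasmic transduction had a median change of -0.05 over 3 lines, with Gsk3b, the kinase that marks β-catenin for destruction, at 0.27 and Csnk1e, Dvl2 and Apc2 at 0.28, -0.22 and -0.35. Lef1, the partner of β-catenin, was the 1 of 11 nuclear factors at an unadjusted p under 0.05, with changes of 0.47, 0.27, 1.15 and 0.58 and an adjusted p of 0.309 over 4 lines. Ctnnbip1, Bcl9l and Tle3 had means over 3 lines of 0.11, -0.15 and -0.18.

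Among 17 tested target genes of β-catenin the median change was 0.20 over 4 lines and 0.31 over 3, beside 0.01 for all genes, and 5 (29.4%) were higher at an unadjusted p under 0.05 in each comparison, beside 6.18% and 6.44% of all genes. Over 3 lines these were Lef1, Myc, Cd44, Fosl1 and Sox9. Myc, a growth regulator, had changes of 1.72 in mProx, 1.57 in MCT, 0.21 in NMuMG and -0.07 in EpH4, with an adjusted p of 0.182 over 3 lines. It passed without NMuMG (0.0194) and on the values as deposited (0.00212). Fosl1, an AP-1 subunit, had changes of 2.31, 0.94, 0.15 and 0.35 in the same order of lines (adjusted p 0.294, and 0.0059 on the values as deposited). As background, Myc and Fosl1 are also known to respond to growth factors such as EGF. Axin2, the target most specific to β-catenin, had changes of 0.20 in mProx, -0.23 in MCT, -0.40 in NMuMG and -0.03 in EpH4 (adjusted p 0.826 over 3 lines). Ccn5 and Apcdd1 had the lowest means of the list, -0.46 and -0.24.

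In the planar polarity and calcium branch, 15 genes were tested and had a median of -0.03 over 3 lines. Prickle1 had changes of 0.83, 1.10, -0.10 and 0.98 in EpH4, mProx, MCT and NMuMG, and Daam1, which links Dishevelled to actin, was higher in each line by 0.30, 0.56, 0.55 and 0.20. Plcb4 and Camk2d, of the calcium branch, had means over 3 lines of -0.59 and -0.46. Their adjusted p over 3 lines were 0.388, 0.315, 0.256 and 0.360, and so none passed.

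**Figure D4:**
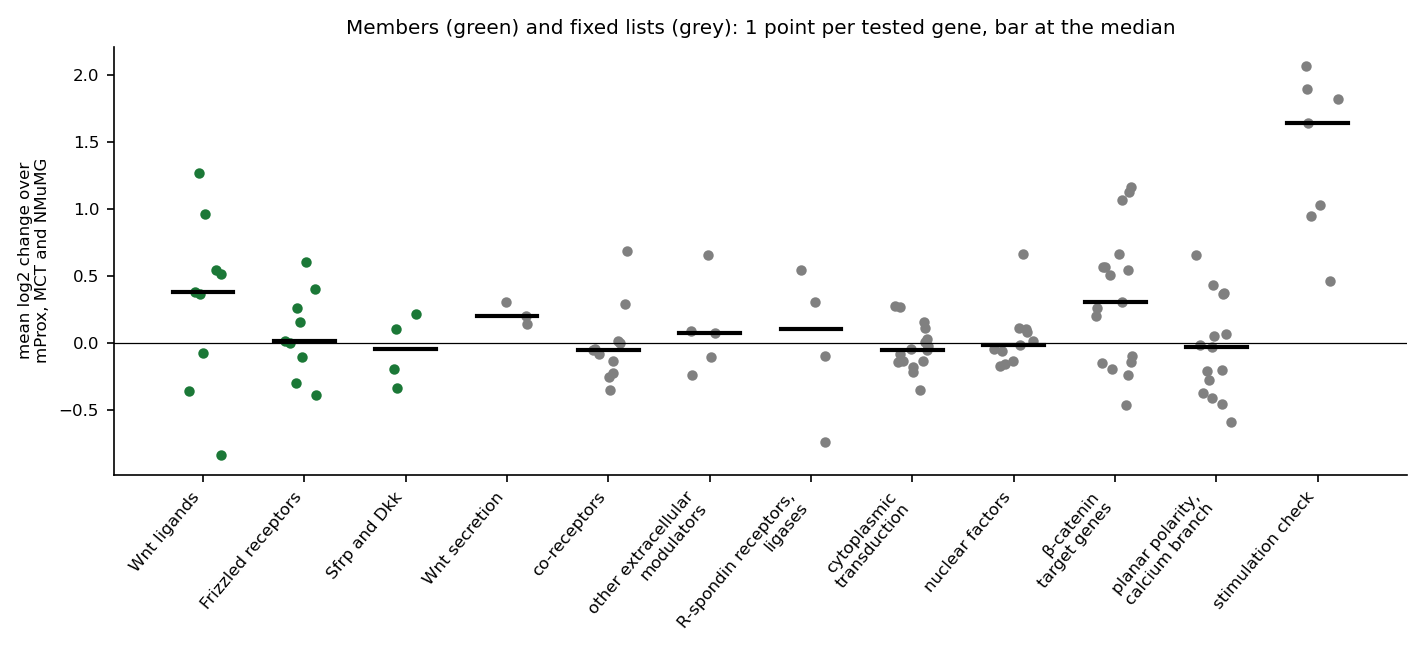
Mean log2 change over mProx, MCT and NMuMG (vertical axis) of each tested gene, by role for the Wnt, Frizzled, Sfrp and Dkk genes (green) and by list for the rest of the pathway and the stimulation check (grey), with a bar at each median. The ligands have their median at 0.38 with Wnt7b highest at 1.27 and Wnt4 lowest at -0.84, the receptors sit around 0, and the stimulation check has its median at 1.65.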

How the data were processed

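Total RNA of 4 lines was read on 8 single-colour Affymetrix arrays. The files hold deposited intensities, linear and 1 per probe set, made with MAS5 per the submitters' processing notes, with its version and scaling target not given in the sources used here. Of 45101 probe sets, 64 controls were left out, and of the rest 34945 have 1 symbol in the platform's annotation, 932 several and 9160 none. All 37 symbols were kept when matched by Entrez identifier to the RefSeq gene table. An offset of 10.6 (the 25th percentile) was added, log2 taken, and the arrays quantile-normalized, since their median log2 values differed by 0.43, over the limit of 0.3 that was set. This removes any overall shift between arrays, and the offset understates changes of dim genes.

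Tests used limma 3.58.1 under R 4.3.3 (intensity trend, line as a block, Benjamini-Hochberg over all 12697 genes, threshold 0.05). The response tests, but not the resting comparison, were also run on simulated data. The noise there was set and not taken from these lines, so that run does not show how the tests fare on them. The pairing comes from the line names. The 2 arrays of a line deviated together, with correlations of 0.905, 0.827, 0.812 and 0.874. Nothing in the labels says that arrays came from separate cultures, so a p-value reflects the spread among these lines alone, and the number of arrays limits precision. All members are named; of each pathway list, those past a threshold and the 2 highest and 2 lowest mean changes over 3 lines among the genes that passed the filter, to which Axin2, Cd44 and Sox9 were added after their values were seen. The members and lists were chosen with earlier results of these data known. Some listed genes, Kremen2 and Tcf7 among them, were not analysed here.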

Additional observations from a re-analysis of the deposited data

Results flagged for a closer look

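Levels and changes of the 22 tested genes over the 4 lines made 66 groups of 4 values. In 4 of these groups 1 line lay far from the others. Chance gives about 1 in 20, so this count is close to what chance would give. The groups are not independent, since each change is the difference between levels that were also checked. The share over all genes was not taken, so the 4 cases are given as descriptions only. The change of Fzd4 was -1.39 in mProx, against 0.07 to 0.27 in the other lines. The change of Wnt10a was -0.49 in MCT, against 0.09 to 0.14. The stimulated level of Fzd6 was 10.03 in NMuMG, against 10.78 to 10.82. The stimulated level of Wnt4 was 4.30 in EpH4, where it is dim, against 6.72 to 7.00.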

How the results depend on the processing

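Most values kept their direction and their side of the threshold: 434 of the members' values under the alternatives were unchanged in both, 17 turned direction and 6 newly passed, all 6 of Wnt7b, and of the pathway genes named 395, 10 and 3. Over 3 lines 13 genes passed (5 higher, 8 lower), against 216 on the values as deposited (116 higher, 100 lower), 51 after scaling to one trimmed mean (22 higher, 29 lower), 21 with a 60th percentile filter, 8 with the mean of all probe sets, 2 with an offset of 50, and 0 without a filter, without the intensity trend or without the replicate block, and 12 to 63 with 1 line left out (27 without MCT, 63 without NMuMG). Over 4 lines 0 passed, against 238 as deposited, 11 scaled, 8 with an offset of 50, 1 with an offset of 1, and 0 to 13 with 1 line left out (13 without EpH4). Wnt7b passed over 4 lines on the values as deposited alone (0.000936), making 1 member, and over 3 lines there (0.000403), scaled (0.0280), with the 60th percentile filter (0.0497), without NMuMG (0.0242) and without probe sets marked _x_ where another exists (0.0499, an alternative chosen after seeing the data), so the count of members was 1 in each and 0 to 1 with 1 line left out. On the values as deposited 5 genes passed for EpH4 against the other lines, 21 for kidney against mammary response (0 to 35 with 1 line left out, 17 without mProx and 35 without MCT) and 6 for resting tissue, and the median of all genes moved to -0.27, -0.21 and 0.15 in these comparisons. The 14 of 22 genes spanning 4-fold at rest (63.6% beside 19.2% of all genes) were 9 of 13 with the 60th percentile filter (69.2% beside 17%). They were 8 of 19 with the mean of probe sets (42.1% beside 16.9%) and 8 of 22 with an offset of 50 (36.4% beside 13.1%). With 1 line left out they were 7 to 13 of 22. The counts were 8 without EpH4 (36.4% beside 12.8%) and 9 without mProx (40.9% beside 15.2%). Without MCT they were 13 (59.1% beside 16.1%) and without NMuMG 7 (31.8% beside 11.9%).

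Some directions turned. With the mean of all probe sets Dkk3 gave 0.065, Fzd1 0.033, Fzd5 0.068, Gsk3b -0.127 and Wls -0.014, with an offset of 50 Dkk3 gave 0.053, and as deposited Fzd8 gave -0.006 and Sfrp1 -0.017. The median of all members, 0.08 over 4 lines, was -0.01 as deposited, and that of the antagonists went from 0.02 to -0.09, or -0.03 scaled. With 1 line left out the change over 4 lines ran from -0.211 to 0.181 for Dkk3, -0.194 to 0.016 for Fzd1, -0.042 to 0.404 for Fzd10, -0.015 to 0.263 for Fzd3, -0.393 to 0.161 for Fzd4, -0.165 to 0.020 for Fzd7, -0.020 to 0.159 for Fzd8, -0.117 to 0.289 for Sfrp1, -0.336 to 0.060 for Sfrp5 and -0.096 to 0.115 for Wnt10a. Over 3 lines it ran from -0.032 to 0.243 for Ctnnbip1, -0.702 to 0.319 for Gpc3, -0.075 to 0.336 for Kremen1, -0.385 to 0.933 for Lgr5, -0.053 to 0.546 for Notum, -0.415 to 0.764 for Reck, -0.443 to 0.274 for Rspo2 and -0.400 to 0.041 for Tle3. Dropping the block, which treats paired arrays as unpaired, left no member past the threshold. The cause of the other shifts was not tested. Signal near background limits the dim genes, and 1 array per line and condition limits all of them.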
